A study of Mus musculus with 28 samples.

Results

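Interferon-stimulated genes are the genes whose transcription rises when a cell receives interferon, and 45 of them were followed here through the pancreas, liver and lung of mice that expressed human APOBEC3B (A3B). The 45 genes were taken from a list of named members, all 45 of which were among the 35928 gene symbols of the newer sample set and among the 24845 gene names of the older one. The rule names the genes and uses no measured value, but the list was chosen with earlier results of these data known. Shares of members set beside shares of all genes below are therefore descriptions and not an independent test. By role they comprised 4 transcription factors, 5 genes of the ISG15 system, 4 IFIT genes, 5 OAS genes, 9 other antiviral effectors, 6 GTPases, 5 genes of the PARP, DTX3L and nuclear body group, and 7 further members.

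A3B mice carried human APOBEC3B fused to turboGFP in the ColA1 locus behind a tetracycline-responsive promoter, together with the CAGs-rtTA3 driver, which is active constitutively in adult tissues, and were fed pellets containing 625 ppm doxycycline as adults. The RNA-seq samples form 2 sets. Set 2 holds 16 samples, namely livers of 6 A3B and 2 control mice and pancreases of 6 A3B and 2 control mice, all labelled 10 days on doxycycline. A figure caption of the paper marks its 2 pooled control animals as without doxycycline, whereas its methods state that control littermates were fed it. Set 1 holds 12 samples, namely livers and lungs of 3 A3B and 3 control mice each. In set 1, A3B livers 23 and 28 are labelled 14 days, A3B liver 70 and the A3B lungs 10 days, and the controls 15 days, although the study's own mouse table gives other times for those controls. Most controls had the A3B transgene and no driver. Control liver 11 is labelled with both transgenes and control lung 87 with the driver alone. In set 2, the labels give A3B pancreases 44 and 137 the transgene alone and control pancreases 45 and 168 both transgenes. The group of every sample was therefore taken from its title. Mouse numbers name the samples below, and 5 A3B mice (44, 49, 125, 137 and 153) and 2 control mice (45 and 168) gave both a liver and a pancreas to set 2.

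Interferons alpha and beta bind a receptor shared by nearly all cells and activate the kinases JAK1 and TYK2. These phosphorylate STAT proteins, which join IRF9 and bind the interferon-stimulated response element (ISRE) in the promoters of target genes. Interferon gamma acts mainly through a second element, the gamma-activated site (GAS). The products of the target genes degrade viral RNA, hold back translation, block viral entry or release, and, in the case of USP18 and the SOCS proteins, damp the receptor itself. These genes are also known to respond when a cell's own RNA or DNA is sensed.

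The ISRE was searched as GAAA, any 2 bases and GAAA again on both strands of the RefSeq promoter windows of assembly GRCm38.p6, each of which runs from 250 bases before to 50 bases after a start site. Overlapping matches were counted separately, and an ISRE match may overlap a GAS match. Of the 45 members, 35 had a window, and 17 of these (48.6%) held a match, against 3.99% of all 27025 gene symbols with a window. The GAS letters TTCNNNGAA were found for 8 of the 35 members (22.9%) and for 9.55% of all symbols. No window was at hand for Ifi27, Iigp1, Parp14, Usp18, Oas2, Parp9, Tor3a, Mx1, Rtp4 and Mx2. The following stretches are shown because they lie before the start sites of members described below, with the matching letters in capitals and the strand of the gene printed 5′ to 3′. A match on the opposite strand reads TTTC, 2 bases and TTTC.
Isg15, chr4:156200871-156200900, minus strand: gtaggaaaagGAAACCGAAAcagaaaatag
Ifit1, chr19:34640775-34640804, plus strand: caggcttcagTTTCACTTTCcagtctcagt
Ifit3, chr19:34583363-34583392, plus strand: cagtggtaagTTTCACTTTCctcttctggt
Ifit3b, chr19:34607759-34607788, plus strand: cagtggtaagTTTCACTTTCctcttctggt
Oas3, chr5:120777715-120777744, minus strand: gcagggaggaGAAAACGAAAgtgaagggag
Rsad2, chr12:26456553-26456582, minus strand: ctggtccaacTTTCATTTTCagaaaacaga
Stat2, chr10:128270266-128270295, plus strand: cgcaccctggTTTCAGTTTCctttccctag
Gbp2, chr3:142620594-142620623, plus strand: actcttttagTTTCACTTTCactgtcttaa

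The stretches of Ifit3 and Ifit3b are letter for letter the same. These neighbouring genes are close copies, and the counts of 1 may hold reads of the other, so their single values are uncertain. The matches of Isg15, Ifit1, Ifit3, Ifit3b, Oas3, Rsad2, Stat2 and Gbp2 are descriptions of letters and were not tested for binding.

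In set 2 the total of estimated counts lay between 65161064 and 118976013 per sample, and for set 1 only TPM values were at hand, so its depth is unknown. Levels in set 2 are given as CPM scaled by TMM within a tissue, and in set 1 as TPM. In set 1, the human transgene stood at 705 to 1705 TPM in A3B livers and 90.6 to 281 TPM in A3B lungs, and at 0.0928 to 0.526 TPM in the controls. In the pancreas, markers of other cells moved with the groups. The 9 acinar markers summed to between 72952 and 190300 TPM in A3B pancreases and to 408800 and 409550 TPM in the controls, while the 8 macrophage markers summed to between 2203 and 6362 TPM against 51.7 and 572 TPM in controls 45 and 168, and fibroblast markers to 930 to 1419 TPM against 37.5 and 167 TPM. Ductal markers summed to 191 to 507 TPM against 6.06 and 30.3 TPM, although on the TMM scale only Krt19 was called of 3 (2.33) and Sox9 and Cftr were at -0.09 and -0.19. A change in the number of cells of a type and a change of RNA per cell cannot be told apart in such bulk samples. Control pancreas 168 also held more lymphocyte RNA than control 45, with B and plasma cell markers at 106 against 1.405 TPM and T cell markers at 31.4 against 0.446 TPM. The part of these differences in the results below was not tested.

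**Figure D1:**
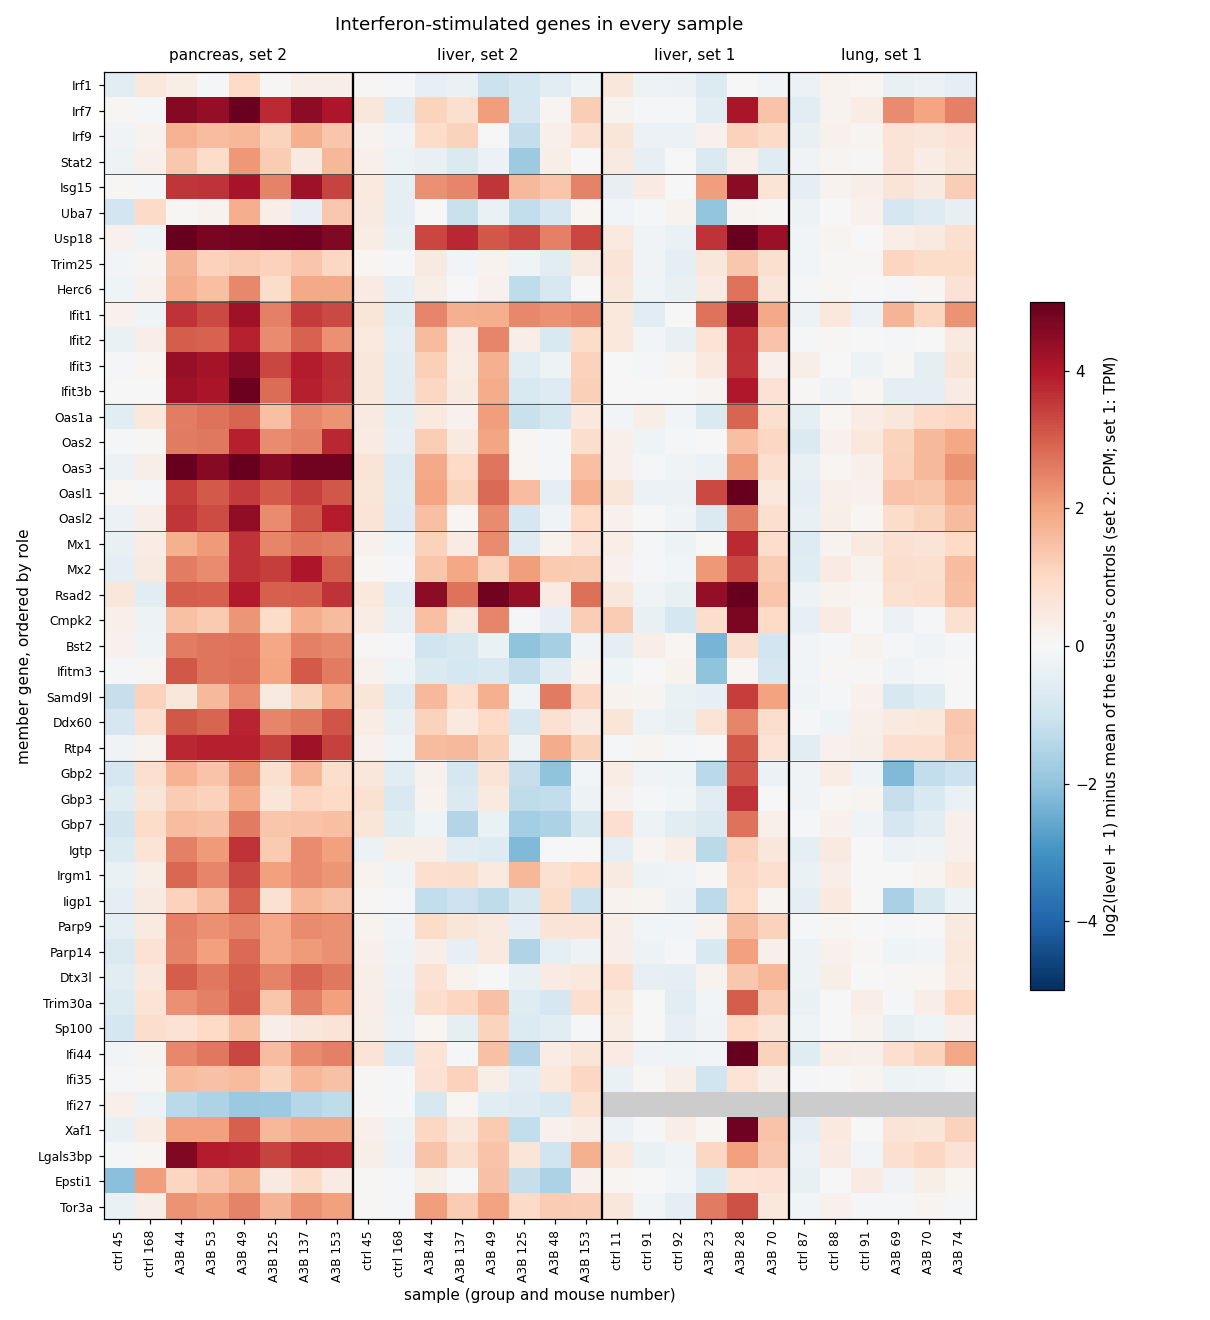
Each row is 1 of the 45 members and each column 1 of the 28 samples, with colour giving log2(level + 1) minus the mean of that tissue's controls (CPM in set 2, TPM in set 1; grey, listed at 0 in set 1). The pancreas columns are red for most members, whereas in set 1 the single A3B liver 28 carries most of the red of the liver.

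In the pancreas the interferon-stimulated genes rose as a group. Of the 45 members, 35 were higher in A3B than in control mice (edgeR quasi-likelihood test, adjusted p under 0.05 over 19142 genes) and 1, Ifi27, was lower, a direction that turned under total-count scaling. Over all genes tested, 17% were called higher and 14.9% lower. The median log2 fold change was 2.53 over the members and 0.09 over all genes, and 43 of 45 members had a positive value. The A3B samples lay above both controls for 37 members, or 82.2%, against 25.1% of all genes tested. The 35 rises ranged from 1.31 to 6.21 on the log2 scale. A fit without A3B pancreases 44 and 137, whose labels give the transgene alone, called 34 members and 11.9% of all genes higher. The median of the members was then 2.50. Under total-count scaling the median of all genes moved to 2.29 and that of the members to 4.57, so the fold changes below are relative to the TMM scale.

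Among the transcription factors, Irf7, the master regulator of interferon alpha genes and itself an interferon target, changed most. Irf7 (chr7:141262706-141266481, minus strand) had CPM values of 11.0 in control pancreas 45 and 9.98 in control 168, and its A3B values ran from 150 through a median of 246 to 349. Every A3B pancreas was at least an order of magnitude above both controls, with a log2 fold change of 4.53 ± 0.42 (SE, edgeR adjusted p = 0.000153). Irf9, the DNA-contacting partner of the STAT dimer, stood at 17.9 and 23.8 CPM in controls 45 and 168 and at 46.3, 64.7 and 74.0 CPM (lowest, median, highest) in A3B mice. Its log2 fold change was 1.59 ± 0.25 (edgeR adjusted p = 0.00135). Stat2, which binds IRF9, stood at 21.6 and 31.1 CPM in the controls and ran from 35.8 through 65.8 to 120 CPM, with no overlap and a log2 fold change of 1.41 ± 0.43 (edgeR adjusted p = 0.0299). Without control 45 the call on Stat2 was lost (edgeR adjusted p = 0.171). Irf1, which is induced chiefly through GAS elements, was 21.9 and 45.3 CPM in the controls and 29.3 to 64.5 CPM in A3B mice, so that the groups overlapped. Its log2 fold change of 0.27 ± 0.34 was not called (edgeR adjusted p = 0.568), and it turned to -0.14 without control 45.

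Of the ISG15 system, 4 of 5 genes rose. Isg15, the ubiquitin-like protein that is conjugated to many targets, measured 5.37 and 4.95 CPM in controls 45 and 168 and 32.9, 73.4 and 114 CPM (lowest, median, highest) in A3B pancreases. All A3B samples exceeded both controls, by a log2 fold change of 3.90 ± 0.50 (edgeR adjusted p = 0.000476). Usp18, the protease that removes ISG15 and also shuts off the interferon receptor, measured 4.38 and 2.99 CPM in the controls and 115, 129 and 252 CPM in A3B mice. Usp18 (chr6:121245906-121270917, plus strand) was separated without overlap, with a log2 fold change of 5.33 ± 0.46 (edgeR adjusted p = 0.000126). Of its A3B values, 5 lay close together and mouse 44 stood above them at 252 CPM. The ligases Trim25 and Herc6 had log2 fold changes of 1.31 and 1.91. Uba7, the enzyme that activates ISG15, overlapped between groups, with 7.83 and 31.5 CPM in the controls and 11.8 to 58.6 CPM in A3B mice (log2 fold change 0.51, edgeR adjusted p = 0.619).

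The IFIT genes, whose products bind viral RNA lacking the cap mark of the host, all rose in the pancreas. Ifit1 measured 3.89 and 2.703 CPM in controls 45 and 168, against 23.6, 43.9 and 80.2 CPM in A3B mice (log2 fold change 3.85 ± 0.48, edgeR adjusted p = 0.00045). Ifit3b went from 1.59 and 1.52 CPM to between 16.9 and 75.9 CPM (4.75 ± 0.61, edgeR adjusted p = 0.000596). The close copies Ifit3 and Ifit3b had log2 fold changes of 4.29 and 4.75, and Ifit2 one of 3.26. No IFIT gene overlapped between the groups.

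All 5 OAS genes, which encode the synthetases that activate RNase L or their catalytically inactive relatives, also rose. Oas3 showed the highest log2 fold change of any member in the main fit, 6.21 ± 0.57 (edgeR adjusted p = 0.000149). Over the alternatives it ranged from 4.17 to 8.26, and Usp18 from 5.08 to 7.58, so this rank was not kept in all of them. It measured 0.274 CPM in control 45 and 0.948 CPM in control 168, and 35.5, 44.2 and 72.4 CPM (lowest, median, highest) in A3B pancreases. In TPM, which allows for gene length, Oas3 averaged 0.0976 in controls and 19.8 in A3B mice, so that it was barely present in control pancreas. Oasl1, a translational repressor of Irf7, was tight within its groups, with 3.01 and 2.47 CPM in the controls and 30.5 to 40.9 CPM in A3B mice (3.69 ± 0.26, edgeR adjusted p = 6.06e-05). Oas1a, Oas2 and Oasl2 had log2 fold changes of 2.50, 3.27 and 3.70.

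Of the 9 other effectors, 8 rose. Mx1 and Mx2 belong to the dynamin-like GTPases that trap viral ribonucleoproteins, although the annotation used here lists Mx2 as a polymorphic pseudogene. They measured 2.96 and 5.48 CPM and 0.822 and 2.32 CPM in controls 45 and 168. Their A3B values ran from 16.4 through 28.3 to 61.1 CPM for Mx1 and from 11.8 through 22.7 to 39.5 CPM for Mx2, clear of the controls in both cases (log2 fold changes 2.87 ± 0.55 and 3.83 ± 0.64). Rsad2, or viperin, a radical SAM enzyme that makes a chain-terminating nucleotide, rose from 12.5 and 5.19 CPM to between 71.7 and 143 CPM (3.37 ± 0.47, edgeR adjusted p = 0.000733). A pair of membrane proteins rose as well, Bst2 (tetherin, which holds budding virions at the cell surface) and Ifitm3 (which blocks fusion in endosomes). Bst2 measured 24.9 and 18.5 CPM in the controls and 84.1, 131 and 147 CPM in A3B mice (2.53 ± 0.30, edgeR adjusted p = 0.000331). Ifitm3 measured 42.2 and 45.0 CPM against 175, 291 and 378 CPM (2.76 ± 0.37, edgeR adjusted p = 0.000553). Rtp4, Ddx60 and Cmpk2 had log2 fold changes of 4.04, 3.20 and 1.68. Samd9l was the effector that was not called (1.08, edgeR adjusted p = 0.277).

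All 6 GTPases known from interferon gamma responses had positive values. Of these, Igtp (2.54) and Irgm1 (2.65), which act on vacuoles of intracellular pathogens, were called, and Gbp2, Gbp3, Gbp7 and Iigp1 were not, with log2 fold changes of 1.17 to 1.77. Without control 45, Igtp lost its call (edgeR adjusted p = 0.146). Gbp2 measured 5.37 CPM in control 45, 19.0 CPM in control 168 and 18.4 to 51.7 CPM in A3B mice, and control 168 lay inside the A3B range. In the PARP, DTX3L and nuclear body group, Parp9, Parp14, Dtx3l and Trim30a rose by 2.19 to 2.84 and Sp100 was not called (0.58). Of the 7 further members, Lgals3bp (3.98), Ifi44 (3.01), Tor3a (2.25), Xaf1 (2.19) and Ifi35 (1.54) rose.

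Epsti1 and Ifi27 were the members with negative values in the pancreas. Epsti1 measured 1.86 CPM in control 45, 51.4 CPM in control 168, and 15.1 to 41.1 CPM in A3B mice, so that all A3B samples lay between the controls. For Epsti1, Samd9l, Sp100 and Uba7, control 168 was at 51.4, 54.1, 48.8 and 31.5 CPM against 1.86, 9.91, 13.6 and 7.83 CPM in control 45. Control 168 was also the control with the higher lymphocyte markers, and whether those account for these members was not tested. Without control 168 the median log2 fold change of the members was 3.16 (0.31 over all genes). Without control 45 it was 2.05 (0.17 over all genes). Ifi27, a small mitochondrial protein, fell on the TMM scale but not under total-count scaling, from 133 CPM in control 45 and 94.1 CPM in control 168 to between 30.1 and 45.2 CPM (-1.57 ± 0.22, edgeR adjusted p = 0.000654). Its direction turned under total-count scaling, where it was called higher (0.69, edgeR adjusted p = 0.0323), and in limma on TPM (0.45). On the TPM scale Ifi27 averaged 68.8 ± 18.2 (SD, n = 2) in controls and 93.7 ± 15.0 (SD, n = 6) in A3B mice.

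**Figure D2:**
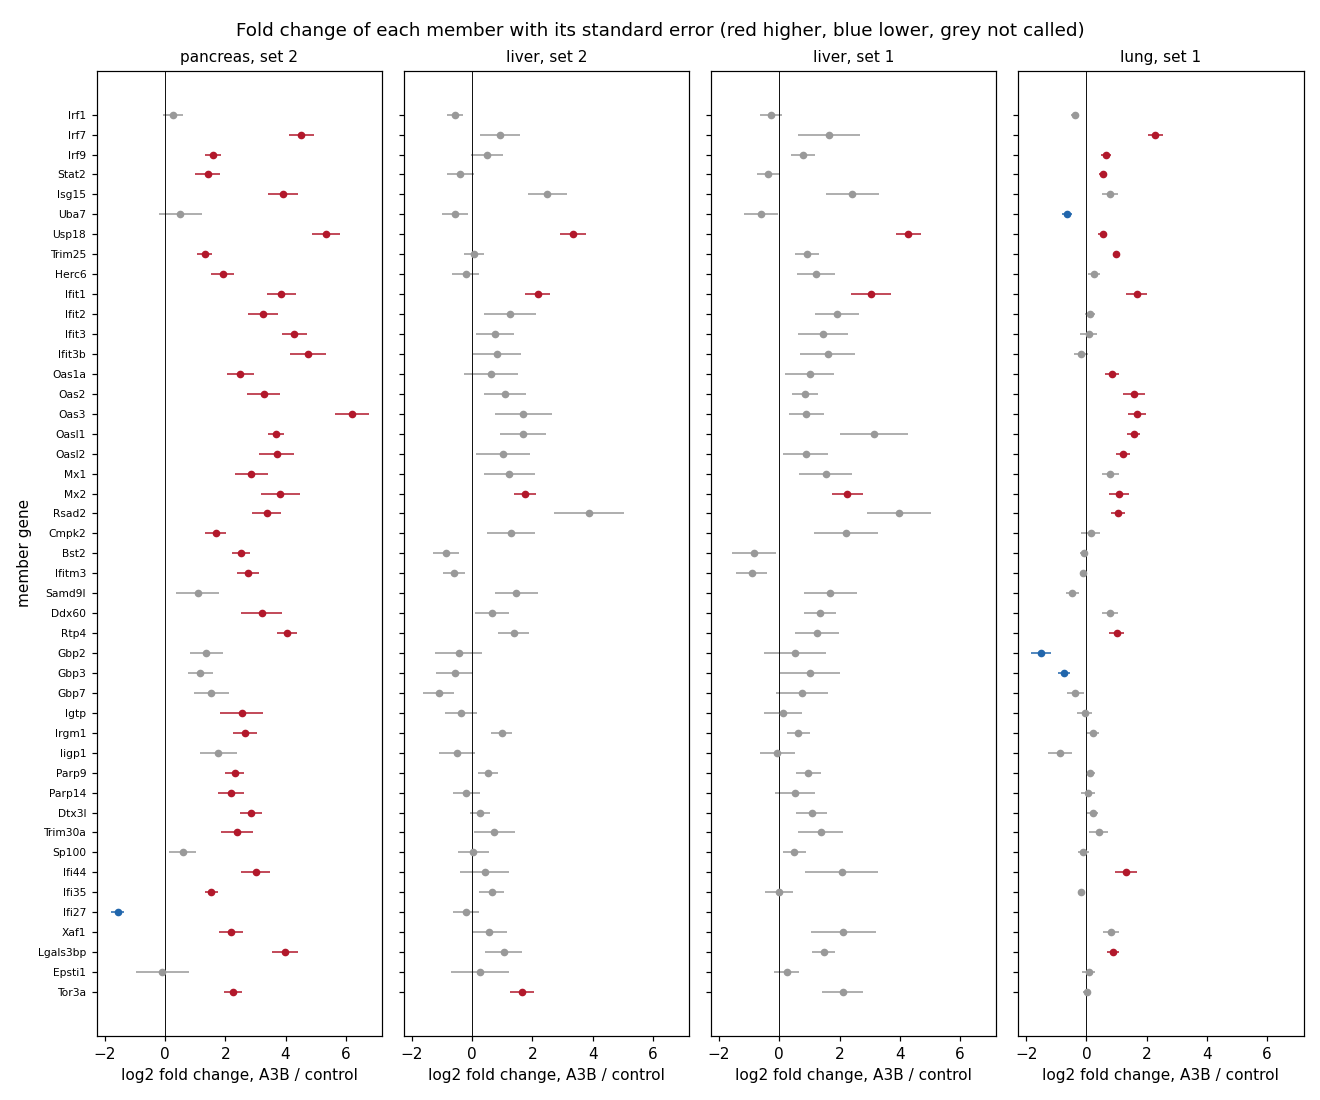
Points are the log2 fold changes of the 45 members with their standard errors, A3B against control, in each of the 4 comparisons; the axes are shared, and Ifi27 has no value in set 1. Red points (higher) fill the pancreas panel, 35 in all, while 4 appear in the liver of set 2, 3 in the liver of set 1 and 16 in the lung.

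In the liver of set 2 the same genes gave 4 calls among 45 members, all higher (Usp18, Ifit1, Mx2 and Tor3a), and none lower. This is 8.89% of the members, against 1.25% of 17376 genes tested that were called higher and 2.41% called lower (3.66% in either direction). At an unadjusted p under 0.05 there were 9 of 45 members, near the 22.9% of all genes. DESeq2 called 6 members higher and 0 lower, and 6.5% of all genes higher. The median log2 fold change was 0.65 over the members and 0.21 over all genes, and the A3B livers lay above both controls for 6 members (13.3%, against 15% of all genes). Leaving out control liver 168 moved the median of the members to 0.24 (0.18 over all genes). Leaving out control liver 45 moved it to 1.10 (0.20 over all genes). The 5 hepatocyte markers summed to 31783 to 76473 TPM in these A3B livers and to 139830 and 91769 TPM in controls 45 and 168, and in set 1 to 2296 to 4769 TPM against 6102 to 7681 TPM in controls. The sets were quantified in different ways, so these sums compare groups within a set only. Neutrophil markers summed to 5.56 to 101 TPM in the A3B livers of set 2 and to 5.09 and 3.64 TPM in its controls. A3B liver 48 stood apart in macrophage markers, at 28.1 TPM against 405 to 1155 TPM in the other A3B livers and 416 and 340 TPM in the controls, and without it 6 members were called higher and 1 lower. The part of these cells in the liver results was not tested.

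Usp18 also separated the groups in this liver, with 15.96 and 9.38 CPM in controls 45 and 168 and 74.5, 133 and 180 CPM (lowest, median, highest) in A3B mice. All 6 A3B livers were above both controls, and the log2 fold change was 3.34 ± 0.43 (edgeR adjusted p = 0.00691, 0.112 without control 168). Ifit1 measured 15.8 and 6.10 CPM in the controls and 36.5 to 58.2 CPM in A3B mice (2.18 ± 0.42, edgeR adjusted p = 0.0262). Mx2 measured 5.19 and 4.46 CPM against 12.01 to 23.8 CPM (1.75 ± 0.37, edgeR adjusted p = 0.0372). Tor3a, a torsin ATPase of the endoplasmic reticulum, measured 7.74 and 7.27 CPM against 15.7 to 35.1 CPM (1.65 ± 0.39, edgeR adjusted p = 0.0485). These 4 genes had non-overlapping groups.

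Rsad2 had the highest log2 fold change in the liver, 3.87 ± 1.15, and was not called (edgeR adjusted p = 0.0918). It measured 13.3 and 6.02 CPM in controls 45 and 168 and ran from 12.4 CPM in A3B mouse 48 to 279 CPM in mouse 49, so that mouse 48 fell between the controls. Isg15 was higher in every A3B liver, with 16.3 and 7.77 CPM against 31.2 to 146 CPM, yet its log2 fold change of 2.49 ± 0.64 was not called (edgeR adjusted p = 0.0623). Irf7 overlapped, with 66.7 and 30.2 CPM in the controls and 24.6, 88.9 and 194 CPM in A3B mice (0.93, edgeR adjusted p = 0.434). Oasl1 also overlapped, with 17.3 and 6.80 CPM against 7.82, 36.2 and 84.2 CPM (1.70, edgeR adjusted p = 0.217). Irf9 ran from 14.1 to 75.1 CPM in A3B mice and Mx1 from 1.54 to 19.5 CPM, both around their controls.

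Bst2 and Irf1 lay below their controls, without a call. Bst2 measured 157 and 144 CPM in controls 45 and 168 and 36.8 to 132 CPM in A3B livers (-0.87 ± 0.44, edgeR adjusted p = 0.271), with every A3B liver below both controls. Irf1 measured 36.6 and 34.5 CPM against 16.3 to 30.1 CPM (-0.57 ± 0.27, edgeR adjusted p = 0.238), also without overlap. Of all genes tested, 12.9% had every A3B liver below both controls. Stat2 measured 78.2 and 54.0 CPM in the controls and 17.7 to 79.2 CPM in A3B mice, and its small fold change of -0.39 took the other sign under total-count scaling, reference-gene scaling and limma on TPM.

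**Figure D3:**
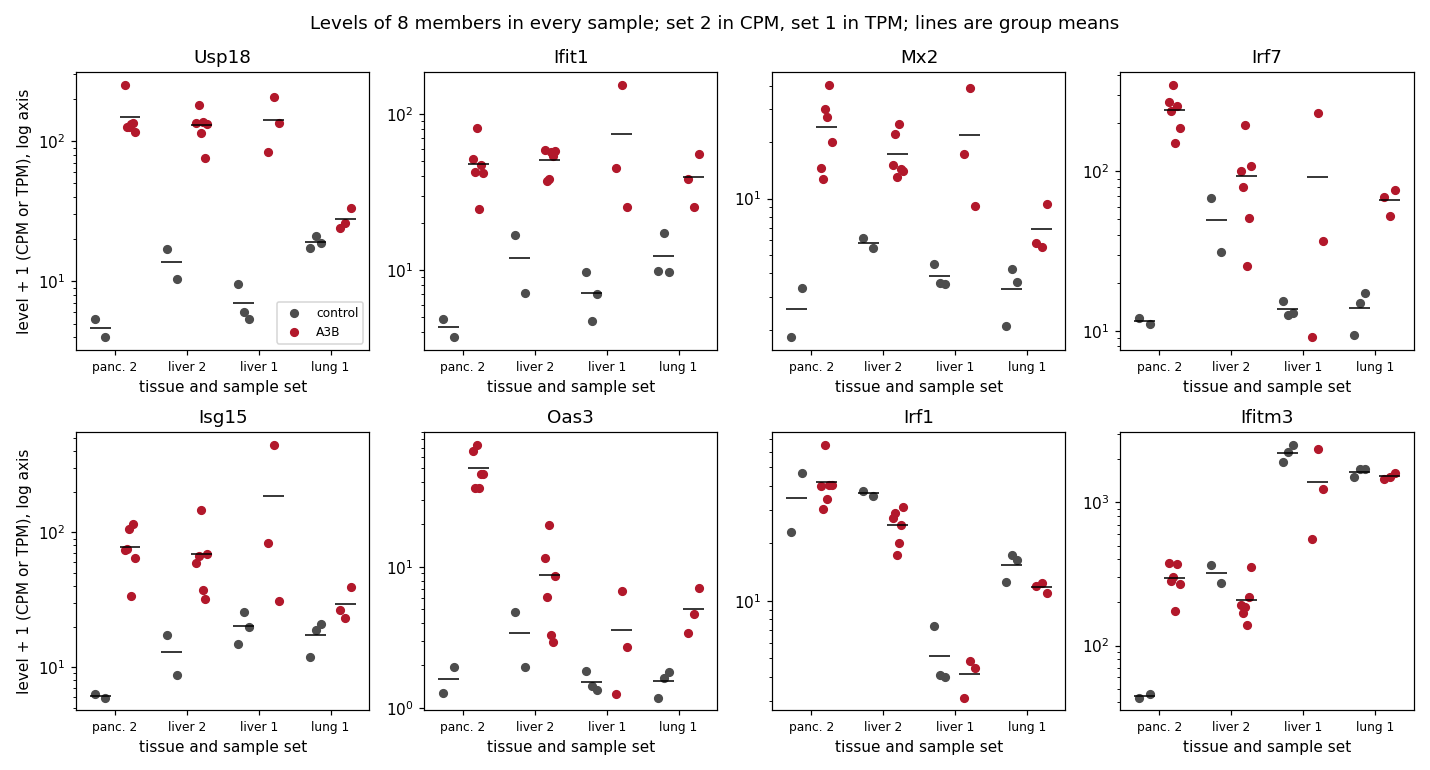
Each panel shows 1 member as level + 1 on a log axis in every sample, controls grey and A3B red, with lines at the group means; set 2 is in CPM and set 1 in TPM. Usp18, Ifit1 and Mx2 stand above their controls in all 4 comparisons, while Irf1 does not and Ifitm3 does so in the pancreas only.

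In the liver of set 1 the calls were again few, 3 of 44 tested (Usp18, Ifit1 and Mx2), all higher. This is 6.82% of the members tested, while 6.07% of 11507 genes were called higher and 1.86% lower, or 7.93% in either direction (limma on log2(TPM + 1), adjusted p under 0.05). Unadjusted p lay under 0.05 for 11 of 44 members, a share below the 32.6% of all genes. Every A3B liver lay above all controls for 10 members and below them for none, against 28.5% and 10.3% of all genes. The median log2 fold change was 1.04 over the members, against 0.39 over all genes, and 0.58 against -0.07 when the values were centred on their median. Ifi27 was listed at 0 in all 12 samples of set 1 and was not tested.

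Usp18 measured 8.51, 5.01 and 4.41 TPM in control livers 11, 91 and 92 and 82.2, 133 and 205 TPM in A3B livers 23, 70 and 28. The lowest A3B liver was well above the highest control, and the log2 fold change was 4.29 ± 0.42 (limma adjusted p = 0.0109). Ifit1 measured 8.76, 3.72 and 5.99 TPM in the controls and 44.1, 24.3 and 154 TPM in A3B livers 23, 70 and 28 (3.03 ± 0.66, limma adjusted p = 0.0411). Mx2 measured 3.49, 2.54 and 2.52 TPM against 16.4, 8.12 and 37.7 TPM (2.26 ± 0.52, limma adjusted p = 0.0442). All 3 genes were separated from the controls, and all 3 had been called in the liver of set 2 too. Without control 91 none of the 3 was called, and likewise without control 92. In these 2 fits 0.00862% and 0.0603% of all genes were called higher, against 6.07% with all samples.

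Most of the other members in this liver were carried by A3B liver 28. It was the highest of the 3 A3B livers for 42 of 44 members and the highest of all 6 livers for 38. Isg15 measured 13.8, 24.8 and 18.8 TPM in controls 11, 91 and 92, and 82.6, 30.2 and 445 TPM in A3B livers 23, 70 and 28 (2.42, limma adjusted p = 0.109). Irf7 measured 14.4, 11.6 and 11.99 TPM in the controls and 8.11, 35.6 and 231 TPM in A3B livers 23, 70 and 28, so that liver 23 was below all controls. Rsad2 measured 2.21, 0.924 and 0.701 TPM against 45.0, 4.79 and 150 TPM (3.97, limma adjusted p = 0.0571), and Oasl1 8.52, 4.08 and 4.09 TPM against 60.2, 8.14 and 300 TPM. Gbp2 was 45.6 TPM in liver 28 and 1.08 and 3.37 TPM in livers 23 and 70, around the controls at 3.58 to 5.83 TPM. Without liver 28, the median of the members fell to 0.46, with 3 called, and the values of Gbp2 and Gbp3 turned to -0.81 and -0.29. Livers 23 and 28 carry the same label of 14 days, and 23 was the lowest A3B liver for 37 of the 44 members.

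Liver 28 stood apart in other genes as well. Ifnb1, which encodes interferon beta, was at 27.2 TPM in liver 28, 0.298 TPM in liver 23 and listed at 0 in liver 70 and in every control liver of set 1. Ifnlr1, the specific chain of the lambda interferon receptor, was at 275 TPM in liver 28 and at 0.680 to 4.73 TPM in the other 5 livers. Macrophage markers summed to 1023 TPM in liver 28, 419 and 924 TPM in livers 23 and 70, and 607 to 854 TPM in the controls. Neutrophil markers summed to 120 TPM in liver 28 and 10.7 to 43.8 TPM in the other 5 livers, ductal markers to 26.8 against 1.85 to 7.28 TPM, and hepatocyte markers to 2296 against 4523 to 7681 TPM. Its plasmacytoid dendritic cell list summed to 495 TPM, of which Ly6d held 493.2 TPM, and the defining marker Siglech was at 0. Interferon beta RNA was found where the member levels were highest, and how the 2 are linked was not tested.

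The lung of set 1 had calls in both directions, with 16 members higher and 3 lower of 44 tested. These are 36.4% and 6.82% of the members, against 16.1% and 20.8% of 13651 genes that were called higher and lower. The median log2 fold change was 0.23 for the members and -0.06 for all genes, and the 16 rises ranged from 0.54 to 2.28. The A3B lungs lay above all controls for 20 members (45.5%, against 23.3% of all genes) and below them for 4 (against 30.6%). Leaving out A3B lung 74, the highest of the A3B lungs for 38 of 44 members, lowered the rises to 7, brought the falls to 6 and moved the median to 0.067, with 25 of 43 members positive. Without this lung, 13.1% of all genes were called higher and 17.3% lower. Lung 74 also stood apart in neutrophil markers, at 446 TPM against 85.4 to 181 TPM in the other 5 lungs, and their part in the lung results was not tested. Leaving out control 88, control 91, A3B lung 69 or A3B lung 70 left 1 fall.

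Of the 4 transcription factors, 3 rose in the lung. Irf7 measured 8.37, 14.0 and 16.3 TPM in control lungs 87, 88 and 91 and 67.7, 51.9 and 75.5 TPM in A3B lungs 69, 70 and 74 (2.28 ± 0.25, limma adjusted p = 0.00315). Irf9 measured 29.3, 43.8 and 42.0 TPM against 59.0, 56.6 and 63.0 TPM (0.64 ± 0.16), and Stat2 11.3, 14.3 and 13.6 TPM against 20.8, 17.0 and 20.3 TPM (0.54 ± 0.13). All 3 were clear of the controls, with limma adjusted p-values of 0.0222 for Irf9 and 0.0190 for Stat2. The call on Irf7 held in all 11 alternatives, that on Irf9 in 8 and that on Stat2 in 9. Irf1 went the other way, at 11.6, 16.4 and 15.4 TPM in the controls and 10.9, 11.4 and 10.0 TPM in A3B lungs, without a call (-0.38 ± 0.14, limma adjusted p = 0.0721).

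All 5 OAS genes rose in the lung, as they had in the pancreas. Oas3 measured 0.182, 0.633 and 0.811 TPM in control lungs 87, 88 and 91 and 2.404, 3.62 and 6.12 TPM in A3B lungs 69, 70 and 74 (1.67 ± 0.29, limma adjusted p = 0.00847). Oasl1 measured 0.849, 2.01 and 1.92 TPM against 5.79, 5.60 and 8.32 TPM (1.56 ± 0.23, limma adjusted p = 0.00555). Oas2, Oasl2 and Oas1a had log2 fold changes of 1.56, 1.21 and 0.86. The call on Oas2 held in 9 of 11 alternatives and that on Oas1a in 7 of 11 (limma adjusted p up to 0.0624 and 0.0865). Since log2(TPM + 1) was used, the change of genes as low as Oas3 is understated.

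Of the IFIT genes only Ifit1 was called in the lung, at 8.89, 16.3 and 8.71 TPM in control lungs 87, 88 and 91 and 37.2, 24.3 and 54.6 TPM in A3B lungs 69, 70 and 74 (1.67 ± 0.35, limma adjusted p = 0.0147). Ifit2, Ifit3 and Ifit3b had values of 0.11, 0.08 and -0.18. In the lung these started from higher levels, with control means of 109 TPM for Ifit3 and 108 TPM for Ifit3b, against 19.5 and 12.6 TPM in the control liver of set 1. Rsad2 rose from 0.274, 0.697 and 0.628 TPM to 1.56, 1.77 and 3.35 TPM (1.04 ± 0.23). Mx2 rose by 1.08, a call kept in 4 of 10 alternatives (limma adjusted p = 0.0924 without A3B lung 74), and Rtp4 rose too (limma adjusted p = 0.0219). Mx1 was higher in every A3B lung, at 3.54, 3.23 and 4.33 TPM against 0.745, 2.02 and 2.73 TPM, and was not called (0.79, limma adjusted p = 0.0643).

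In the ISG15 system of the lung, Usp18 and Trim25 rose and Uba7 fell. Usp18 measured 16.3, 20.0 and 17.9 TPM in control lungs 87, 88 and 91 and 23.2, 25.0 and 32.3 TPM in A3B lungs 69, 70 and 74 (0.54 ± 0.15, limma adjusted p = 0.0295). Trim25 had a log2 fold change of 0.98 (limma adjusted p = 0.00274). Isg15 was above the controls in every A3B lung, at 25.5, 22.1 and 38.3 TPM against 11.0, 17.95 and 19.9 TPM, and missed the threshold (0.78, limma adjusted p = 0.0659). Uba7 measured 36.4, 45.0 and 51.8 TPM in the controls and 23.7, 27.9 and 32.5 TPM in A3B lungs, entirely below them (-0.64 ± 0.17, limma adjusted p = 0.0253, called in 7 of 11 alternatives). Lgals3bp and Ifi44 completed the rises, with 0.87 and 1.30, and were called in 10 and 6 of 11 alternatives.

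The falling members of the lung besides Uba7 were 2 guanylate-binding proteins. Gbp2 measured 37.9, 56.3 and 37.1 TPM in control lungs 87, 88 and 91 and 8.52, 17.7 and 19.9 TPM in A3B lungs 69, 70 and 74 (-1.51 ± 0.33, limma adjusted p = 0.0162). Gbp3 measured 26.3, 30.7 and 32.8 TPM against 13.01, 17.2 and 23.4 TPM (-0.74 ± 0.21, limma adjusted p = 0.0309). Gbp2 was called in all 11 alternatives and Gbp3 in 6 of 11, with an adjusted p of up to 0.0979 in limma (without control 91). Neither overlapped between groups, and 5 of the 6 GTPases had negative values, Irgm1 being the exception at 0.21. B and plasma cell markers summed to 40.5 to 110 TPM in A3B lungs and 68.2 to 316 TPM in controls, and T cell markers to 108 to 143 TPM against 145 to 249 TPM. The part of these cells in the fall of the guanylate-binding proteins was not tested. Ifitm3 and Bst2 were high in all lungs, at 1450 to 1713 TPM and 257 to 330 TPM, and neither was called (both -0.10).

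Whether A3B changed the members more in 1 organ than in the other was tested in set 2 by an interaction term over its 16 samples. Of 45 members, 20 had a larger log2 fold change in the pancreas and none a larger one in the liver, against 6.87% and 5.02% of 19927 genes tested. At an unadjusted p under 0.05 there were 34 members, against 28.8% of all genes. The comparison rests on the 2 control mice. The median difference of the members was 1.66 without control liver 45 and 1.72 without control pancreas 45 (-0.03 and 0.10 over all genes). It was 2.51 without control liver 168 and 2.69 without control pancreas 168 (0.03 and 0.38 over all genes). Positive differences were held by 41 of 45 members, with a median of 2.05 against 0.03 over all genes, and total-count scaling moved these medians to 3.55 and 1.59.

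Of the 20 members, 6 had a negative log2 fold change in the liver (Bst2, Ifitm3, Herc6, Igtp, Parp14 and Gbp7, the last of which was not called in the pancreas either). Bst2 and Ifitm3 had differences of 3.58 ± 0.59 (edgeR adjusted p = 0.0028) and 3.54 ± 0.54 (edgeR adjusted p = 0.00195). Both were low in control pancreas and high in control liver: Ifitm3 averaged 30.2 TPM in control pancreas and 697 TPM in control liver, and 925 and 578 TPM in A3B pancreas and liver. Bst2 averaged 11.7 and 266 TPM in the controls and 326 and 191 TPM in A3B mice. These are TPM values, in which control pancreas is taken up largely by acinar transcripts, and the TMM-scaled log2 fold changes in the pancreas were the smaller ones given above (2.76 for Ifitm3 and 2.53 for Bst2).

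The other 14 had positive values in both tissues. Oas3 had the widest difference, 4.72 ± 1.13 (edgeR adjusted p = 0.0170), followed by Ifit3b at 4.12 ± 1.03 (edgeR adjusted p = 0.0205) and Irf7 at 3.78 ± 0.81 (edgeR adjusted p = 0.00985). Usp18, Ifit1 and Mx2, called in both tissues, differed by 2.16, 1.84 and 2.24. The difference of Ifit1 was near the threshold (edgeR adjusted p = 0.0471) and was called in 5 of 19 alternatives. Those of Usp18 and Mx2 were called in 16 and 15 of 19. Rsad2 had no called difference, at -0.33 ± 1.06 (edgeR adjusted p = 0.881) and its sign turned under total-count scaling. Isg15 (1.59, edgeR adjusted p = 0.168), Mx1 (1.81, edgeR adjusted p = 0.232) and Oasl1 (2.17, edgeR adjusted p = 0.0853) were not called either. Genes of macrophages differed in the same test, for example Cd68 by 3.09 and C1qa by 3.35, and 3 of 4 fibroblast markers were called as well, with a median difference of 4.15. The part of these cells in the member differences was not tested.

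**Figure D4:**
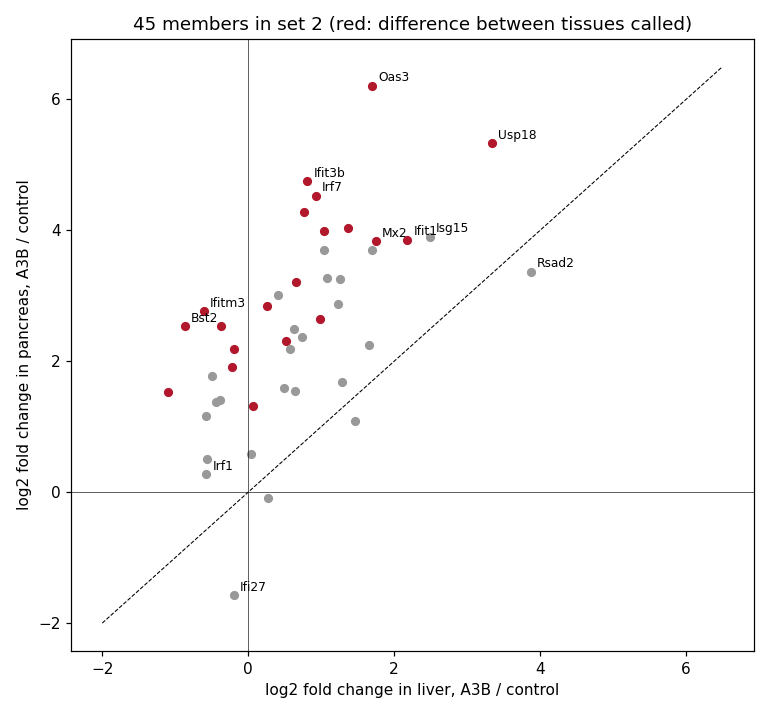
The log2 fold change in the pancreas is plotted against that in the liver for the 45 members of set 2, red where the difference was called and with a dashed line of equality. Members lie above the line except Rsad2, Epsti1, Samd9l and Ifi27, and Oas3 is the farthest above it.

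The effect in the lung was set against that in the liver of set 1 by the same kind of interaction. Only Usp18 was called, with a lower log2 fold change in the lung (-3.75 ± 0.46, limma adjusted p = 0.00287), against 1.94% of 13477 genes called higher and 8.81% called lower. In absolute terms, A3B lungs had 23.2 to 32.3 TPM of Usp18 and A3B livers 82.2 to 205 TPM, and control lungs at 16.3 to 20.0 TPM were above control livers at 4.41 to 8.51 TPM. The call held in all 14 alternatives, with adjusted p-values between 0.000656 and 0.0128. No member had a called difference in favour of the lung, although Irf7 (0.63) and Oas3 (0.77) had positive values. Without liver 28 there were 2 such members, and 6 members were lower in the lung when liver 70 was left out. Unadjusted p lay under 0.05 for 4 of 44 members, and for 29.9% of all genes.

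Across the 4 comparisons, Usp18, Ifit1 and Mx2 were the members called higher in every tissue and set. In the lung the call on Mx2 held in 4 of 10 alternatives. That on Usp18 held in 7 of 11 (limma adjusted p up to 0.0808, without control 87). In the liver of set 1 the 3 calls were lost without control 91 or 92. In those fits 0.00862% and 0.0603% of all genes were called higher. The calls in the liver of set 2 rest on 2 controls. A further 14 members were called higher in 2 comparisons, 18 in 1 and 10 in none. Of the 10461 genes tested in all 4 comparisons, 0.268% were called higher in 4, 1.61% in 3, 7.49% in 2 and 25.5% in 1. The pancreas and liver comparisons share control mice 45 and 168 and A3B mice 44, 49, 125, 137 and 153, and the set 1 comparisons share control mouse 91 and A3B mouse 70, so these counts are not independent of each other. Irf1, Epsti1, Samd9l, Sp100, Uba7, Ifi27, Gbp2, Gbp3, Gbp7 and Iigp1 were the 10 members never called higher.

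The mice that gave both tissues in set 2 also kept much of their order. The mean of log2(CPM + 1) over the 45 members was 6.30 in the pancreas of A3B mouse 49, 5.76 in mouse 44, 5.69 in mouse 137, 5.64 in mouse 153 and 5.17 in mouse 125. In the liver it was 5.32 in mouse 49, 5.08 in mouse 44, 4.95 in mouse 153, 4.62 in mouse 137 and 3.91 in mouse 125. Mouse 49 was highest and mouse 125 lowest of these 5 in both organs. In mouse 49, 33 of 45 members were at their highest A3B value in the pancreas and 21 of 45 in the liver, while mouse 125 held the lowest A3B value of 32 and 26 members. With 5 mice no correlation was computed. Macrophage markers summed highest in mouse 49 in the liver (1155 TPM) but in mouse 53 in the pancreas (6362 TPM, against 4385 TPM in mouse 49), and mouse 53 had a member mean of 5.62. Leukocyte markers were highest in mouse 49 in both organs, at 781 TPM against 213 to 441 TPM in the other A3B pancreases and 211 TPM against 10.9 to 87.6 TPM in the other A3B livers. T cell markers in its pancreas (82.7 TPM, against 8.02 to 21.6 TPM) and neutrophil markers in its liver (101 TPM, against 5.56 to 37.0 TPM) were the highest of the group too, and its liver had the lowest hepatocyte sum, 31783 TPM. The plasmacytoid dendritic cell list, which set liver 28 of set 1 apart, summed to 703 TPM in liver 49 and 4.43 to 56.1 TPM in the other A3B livers. In the liver of set 2 its 3 genes had a median log2 fold change of 0.53 and a highest of 5.96. NK cell markers summed to 20.5 TPM in liver 49, against 0.881 to 5.93 TPM. The part of these cells in the order of the mice was not tested. The control livers were not far apart from the lower A3B livers, at 4.52 and 3.84 for controls 45 and 168, whereas the control pancreases stood at 2.98 and 3.65.

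**Figure D5:**
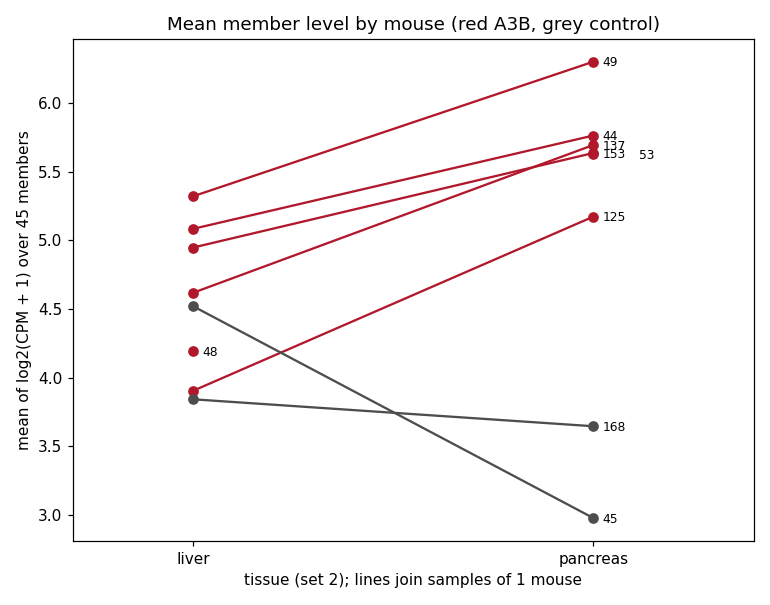
The mean of log2(CPM + 1) over the 45 members is shown for each mouse of set 2 in liver and pancreas, A3B red and controls grey, with lines joining samples of 1 mouse. Since the scaling was set within each tissue, heights compare mice within a tissue; mouse 49 is highest and mouse 125 lowest of the 5 joined A3B mice in both.

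The pathway around the members was read from a fixed list of 46 genes. In the pancreas, 25 of 43 tested were higher and 1 was lower, in the liver of set 2, 1 of 41 and none, in the liver of set 1, 3 of 36 and none, and in the lung, 8 and 7 of 38. Over all genes tested, 17% were called higher and 14.9% lower in the pancreas, 1.25% and 2.41% in the liver of set 2, 6.07% and 1.86% in the liver of set 1, and 16.1% and 20.8% in the lung. The list's own shares called higher were 58.1%, 2.44%, 8.33% and 21.1% in the same order, and 18.4% were called lower in the lung. In the lung these shares were near those of all genes. The ligands were near the limit of detection in set 2. Ifnb1 had no estimated count in any of the 4 control samples, and 14 to 28 counts in A3B pancreases and 1 to 19 counts in A3B livers, with 19 in mouse 49. Ifnk, an interferon of epithelia, also had no count in the controls and between 5 and 23 counts in A3B pancreases. Since the controls had none, both genes passed the filter on low counts through the A3B samples alone, and their calls, which are among the 25 above, support no direction.

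Of the receptor chains, 5 of 6 rose in the pancreas while 4 of 6 fell and Ifngr1 rose (0.52) in the lung. Of all genes, 17% were called higher in the pancreas and 20.8% lower in the lung. Ifnlr1 rose most, from 5.37 and 4.81 CPM in control pancreases 45 and 168 to between 26.5 and 46.0 CPM (2.86 ± 0.29, edgeR adjusted p = 0.000201). In the lung it fell slightly, from 183, 221 and 162 TPM to 145, 129 and 146 TPM (-0.42, limma adjusted p = 0.047). Ifnar1, Ifnar2, Ifngr2 and Il10rb rose by 0.93 to 1.08 in the pancreas.

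Stat3 rose in the pancreas (1.59), the lung (0.74) and the liver of set 1 (1.36). Among inhibitors, Socs3 rose in the pancreas (3.20 ± 0.42) and the lung (1.25 ± 0.27), while Ptpn6, a phosphatase of blood cells, fell in the lung (-1.09 ± 0.23). Ptpn2, a phosphatase of the JAK-STAT pathway, rose in the pancreas (1.39), in the liver of set 2 (2.10 ± 0.37, edgeR adjusted p = 0.0205) and in the liver of set 1 (1.83 ± 0.28, limma adjusted p = 0.0223). In the liver of set 2, Ptpn2 was at 6.99 and 7.97 CPM in controls 45 and 168 and at 24.2 to 53.6 CPM in A3B mice.

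Sensors of nucleic acids rose in the pancreas for 8 of 14 genes, including Zbp1 (3.71), Tlr7 (3.68) and Dhx58 (2.88), where 17% of all genes were called higher. In the livers none was called, while 11 of 14 in set 2 and 9 of 10 in set 1 had positive values. Zbp1, which binds left-handed nucleic acid, measured 1.20 and 5.88 CPM in control pancreases 45 and 168 and 24.4 to 84.9 CPM in A3B mice. Adar and Eif2ak2, the double-stranded RNA deaminase and kinase, rose in the pancreas (1.97 and 2.19) and in the lung (0.76 and 0.45). Trex1, the DNA exonuclease, rose in the pancreas (3.06 ± 0.33, edgeR adjusted p = 0.000255) and was listed at 0 in all samples of set 1. Irf3, which drives the first wave of interferon beta, was lower in the pancreas (-0.72) and the lung (-0.56), and in the pancreas no pathway gene was called lower under total-count scaling.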

How the data were processed

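For set 2 the authors pseudoaligned reads to mm10 transcripts and deposited estimated counts and TPM per transcript. For set 1 the authors deposited TPM per gene, derived from read counts, and no counts were used here. The column names of set 1 carry the word dedup, so duplicate reads appear to have been removed before counting. TPM values of the 2 sets are therefore not on a common scale. Of 119414 transcripts, 116728 (97.751%) matched a gene symbol, and estimated counts were added up by symbol and rounded to whole numbers. Columns of A3B and control samples were grouped by title. Set 2 was tested in edgeR (quasi-likelihood F test, TMM factors), and set 1 with limma on log2(TPM + 1), which understates changes of low genes. P-values were adjusted by Benjamini-Hochberg over all genes tested, and a call is an adjusted p under 0.05. Low genes were removed by edgeR's filterByExpr or a mean under 1 TPM. Differences between tissues were interaction terms, and mice that gave both organs, known from their numbers, were a block in an alternative fit. The members and lists were chosen with earlier results of these data known. Per-sample values are given for the transcription factors, Isg15, Usp18, Ifit1, Mx1, Oasl1, Bst2, Rsad2 and Ifitm3, for the 3 largest called rises and falls of each comparison and for members called against the majority; further genes with values were chosen after these were seen. Whether samples of a group came from independent litters is not stated, so p-values cover the spread between these mice. Other scalings, filters, pseudocounts, DESeq2 and leaving out each sample were tried. The scripts were tested on simulated data. R 4.3.3, edgeR 4.0.16, limma 3.58.1, DESeq2 1.42.0 and Python 3.11.15 were used. One gene of the pathway list enters its counts and is not reported here.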

Additional observations from a re-analysis of the deposited data

Results flagged for a closer look

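Of 38 groups of 6 samples tested by Dixon's criterion, 2 held a sample far from the others, and chance marks about 5% of groups. Irf1 in A3B pancreas 49 stood apart by 0.629 of the range of log2(CPM + 1), and Usp18 in A3B pancreas 44 by 0.81 of it. Mouse 49 had the highest Irf1 level of its group (64.5 CPM) and mouse 44 the highest Usp18 level (252 CPM).

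The A3B response differed between organs for 8 of the named genes by the interaction test, Usp18 in both sets. In set 2 the log2 fold change was larger in the pancreas than in the liver by 3.78 for Irf7, 2.16 for Usp18, 1.84 for Ifit1, 4.12 for Ifit3b, 4.72 for Oas3, 2.24 for Mx2, 3.58 for Bst2 and 3.54 for Ifitm3. The difference of Ifit1 was called in 5 of 19 alternatives only. In set 1, Usp18 had a log2 fold change that differed by -3.75 between lung and liver, the lung being lower.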

How the results depend on the processing

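Counts and directions that moved with the processing were as follows, and the cause was not tested. Total-count scaling called 0 members lower in the pancreas, as did scaling without the 10 most abundant genes and limma on TPM, 40 pathway genes higher and 0 lower there, 3 pathway genes higher in the liver of set 2 (DESeq2 called 5), and, for pancreas minus liver, 38 members and 29 pathway genes higher. Over all genes this scaling called 70.4% higher and 1.1% lower in the pancreas, 5.05% higher in the liver of set 2 and 39.4% higher for pancreas minus liver. In the liver of set 1, 1 member was called higher with no filter on low values and 1 with median-centred values. Under total-count scaling Ifi27 was at 0.69 in the pancreas, 0.23 in the liver of set 2 and 0.46 in the difference of these organs, Stat2 at 0.077 and Gbp2 at 0.094 in that liver, and Rsad2 at 1.42 in the difference. In that liver, reference gene scaling gave 0.026 for Stat2 and 0.16 for Ifi27, limma on TPM 0.19 for Stat2, 0.11 for Ifi27 and 0.13 for Uba7, and scaling without the 10 most abundant genes 0.13 for Ifi27. Limma on TPM gave Ifi27 0.45 in the pancreas, and a pseudocount of 0.1 gave Uba7 0.12 in lung minus liver.

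With 1 A3B sample of set 2 left out at a time, 34 to 37 members were called higher in the pancreas, against 14.8% to 16.6% of all genes. In the liver of set 2 there were 1 to 6 (0.251% to 3.82% of all genes). For pancreas minus liver there were 15 to 28 (5.28% to 10.0%, the upper ends without A3B liver 49). Fits left with 1 control are given above by their medians. With any 1 sample of set 1 left out, 0 to 7 members were called higher in its liver. None was called without control 91 or 92 (0.00862% and 0.0603% of all genes), and 7 without A3B liver 70 (7.16%). In the lung there were 7 to 16 (10.2% to 15.7%, and 7 and 13.1% without A3B lung 74). For lung minus liver there were 0 to 2 (0.855% to 5.71%). Members called lower ranged from 0 to 1 in the liver of set 2, 1 to 6 in the lung and 1 to 6 for lung minus liver. Log2 fold changes that took both signs ranged in the pancreas from -0.14 to 0.91 for Irf1 and -0.15 to 1.86 for Uba7, in the liver of set 2 from -1.03 to 0.22 for Gbp2 and -1.27 to 0.42 for Gbp3, and in the liver of set 1 from -0.44 to 0.0049 for Irf1, -0.81 to 1.43 for Gbp2, -0.29 to 1.81 for Gbp3 and -0.97 to 0.085 for Uba7. For pancreas minus liver, Rsad2 ranged from -0.995 to 0.42. For lung minus liver, the ranges were -0.39 to 0.055 for Irf1, -0.48 to 1.85 for Irf7, -0.43 to 0.052 for Irf9, -1.51 to 0.36 for Mx1, -0.027 to 1.54 for Bst2 and -0.73 to 0.33 for Uba7. Of 1056 gene values with a sample left out, 931 kept direction and side of the threshold, and of 531 under other settings, 478 did.

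With the mouse as replicate block, 21 members were called for pancreas minus liver and 1 for lung minus liver, against 20 and 1 without it. With 2 control mice per organ in set 2 and 3 samples a group in set 1, every call rests on few controls.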
